A study of Mus musculus domesticus with 6 samples.

Results

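The noncoding snoRNA host genes Gas5, Snhg1, Snhg3, Snhg5, Snhg6, Snhg8, Snhg12, Snhg15, Snhg17 and Zfas1 were followed in mouse erythroid progenitors with and without deletion of a core subunit of the RNA exosome. The 10 genes were taken by symbol, matched to the Ensembl gene identifier in the deposited tables, out of 55359 entries in each table. All 10 were among the 13117 genes with enough reads to be tested. BFU-E, the burst-forming unit-erythroid stage of early red cell progenitors, were sorted from fetal liver at E14.5 as GFP+ Lin- Kit+ cells with low CD24 and CD71, and total RNA was sequenced. The control group was Exosc3 fl/fl Cre- (3 libraries, Cre-negative below) and the deleted group was Exosc3 fl/fl Cre+ (3 libraries, Cre-positive below), in the strain Exosc3-floxed and Vav1-Cre. Both groups therefore carried 2 floxed Exosc3 alleles and differed in Cre. Vav1-Cre is active across blood cells and not only in the erythroid line. The gate asked for GFP in both groups, and the source of GFP is not given in the sources used here.

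A host gene of this kind is transcribed, spliced and exported as a noncoding RNA, while small nucleolar RNAs (snoRNAs) are cut out of its introns. Box C/D snoRNAs guide 2'-O-methylation and box H/ACA snoRNAs guide pseudouridylation, mainly of ribosomal RNA. The spliced host RNA often carries short reading frames that expose it to nonsense-mediated decay, and many hosts start with the 5' terminal oligopyrimidine tract shared with ribosomal protein genes. The RNA exosome is a 3' to 5' exonuclease complex that trims snoRNA precursors and degrades intron and other noncoding RNA, and Exosc3 is one of its cap subunits.

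In the GENCODE M21 annotation of GRCm38 the 10 hosts hold 34 snoRNA genes of 60 to 205 bases, and all 34 lie in host introns. By sequence, 19 of the 34 had a C box (TGATGA within the first 20 bases) together with a D box (CTGA within the last 16), 9 had ACA within the last 10 bases, and 6 had neither, on the snoRNA's own strand. Over the 1507 annotated snoRNA genes the same searches matched 20.3% and 46.4%. Gas5 (chromosome 1, plus strand) holds 9 snoRNA genes and Snhg1 (chromosome 19, plus) holds 8, and every one of these with a matched box was of the C/D kind. Snhg5 (chromosome 9, minus) holds 2 C/D snoRNAs, Snhg6 (chromosome 1, minus) holds 1 and Zfas1 (chromosome 2, plus) holds 3. The ACA kind sat in Snhg3 (chromosome 4, minus, 2 genes), Snhg8 (chromosome 3, minus, 1 gene), Snhg15 (chromosome 11, minus, 1 gene) and Snhg17 (chromosome 2, minus, 3 genes). Snhg12 (chromosome 4, plus) holds 4 genes and carries both kinds.

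The following snoRNAs are shown as an example of the C/D kind and as the ACA snoRNAs of Snhg8 and Snhg3, whose transcript mix is described further on. They are written 5' to 3' from the M21 transcripts, with the matched boxes in capitals.
Snord50b, in Snhg5: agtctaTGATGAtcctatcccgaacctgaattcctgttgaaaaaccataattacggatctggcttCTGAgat
Snora24, in Snhg8: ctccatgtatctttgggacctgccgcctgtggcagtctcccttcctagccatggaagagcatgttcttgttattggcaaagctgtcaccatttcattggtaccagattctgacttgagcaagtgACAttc
Snora73a, in Snhg3: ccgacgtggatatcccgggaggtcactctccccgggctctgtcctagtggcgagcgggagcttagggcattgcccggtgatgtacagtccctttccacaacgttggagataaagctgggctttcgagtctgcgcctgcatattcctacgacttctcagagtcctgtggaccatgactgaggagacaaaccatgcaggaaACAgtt

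The snoRNAs themselves were almost unseen in these libraries. Of the 34 genes, 32 had a row in the deposited tables, 30 of these had an effective length of 0 (the number of positions at which a sequenced fragment could start), and 2 had any count. Snora73a had expected counts of 20, 0 and 208 in Cre-negative and 50, 84 and 0 in Cre-positive libraries, and Snora73b had 100 in Cre-negative library 3 and 0 elsewhere. A value of 0 for the others follows from their length in this kind of library, so what was measured is the host RNA.

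The check of the genotype came first. Exosc3 stood at 51.9, 44.3 and 48 CPM (counts over the normalized library size) in the Cre-negative libraries and at 26.8, 22.1 and 30.2 in the Cre-positive ones, 54.8% ± 8.47 (SD, n = 3) of the control mean, and the groups did not overlap. Its log2 fold change was -0.87 (SE 0.22, adjusted p = 0.259, edgeR quasi-likelihood test with Benjamini-Hochberg adjustment over all genes). Over the whole table that test called 16 genes higher in Cre-positive libraries and 0 lower. Its unadjusted p was below 0.05 for 531 genes higher and 549 lower. With DESeq2 the calls numbered 235 higher, or 1.81% of the genes it adjusted, and 218 lower. Libraries held 89629949 to 124931215 expected counts, and pairs of libraries correlated at r = 0.778 to 0.832 across genes.

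Markers of other blood cells had lower summed levels in Cre-positive libraries, although edgeR called 0 of the tested neutrophil, monocyte, lymphoid and hepatocyte markers. DESeq2 called 2 of 9 tested neutrophil and monocyte markers and 1 of 6 lymphoid markers lower, beside 218 of 12961 genes. All but 1 of the 12 erythroid markers were tested, and none of the 12 was at 0 throughout. Their log2 fold changes were positive for 7 and negative for 4, with a median of 0.07. The 12 summed to 1528 to 1732 CPM in Cre-negative and 1711 to 2130 CPM in Cre-positive libraries, which overlap. Car2 (carbonic anhydrase, an erythroid enzyme) was the only one called by edgeR, higher at a log2 fold change of 1.09 (SE 0.12, edgeR adjusted p = 0.00787). That call was lost with effective length offsets and without Cre-positive replicate 1 or 2. The summed level of 11 neutrophil and monocyte markers was 585 to 1530 CPM in Cre-negative and 232 to 533 CPM in Cre-positive libraries, with Ly6c2 at 0 in all 6. Mpo, the neutrophil myeloperoxidase, had a log2 fold change of -1.58 (SE 0.38, edgeR adjusted p = 0.235, and 0.000868 with the replicate number as a block). The summed level of 10 lymphoid markers was 36 to 125 CPM against 3.30 to 11.2 CPM, with Cd3e and Dntt at 0. The 8 hepatocyte markers summed to 2.35 to 8.35 CPM against 0 to 4.95 CPM, which overlap, and 5 of the 8 were at 0. The part of these levels in the host gene values below was not tested. In sorted pools such as these, fewer cells of a type and less RNA per cell cannot be told apart.

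Per length, the hosts spanned a wide range of levels in control BFU-E. Gas5, the growth arrest-specific transcript, was the highest at 353 ± 33 TPM (SD, n = 3; transcript abundance per length on a common library total) in Cre-negative libraries, above 97.1% of tested genes. Snhg1 followed at 184 ± 44.2 TPM and Zfas1 at 111 ± 18.2 TPM. Snhg5, Snhg8 and Snhg3 lay at 94.1 ± 20, 76.5 ± 19.6 and 72.3 ± 29.6 TPM. Snhg15, at 49.4 ± 3.90 TPM, and Snhg12, at 44.4 ± 15.7 TPM, came next, and Snhg17 (23.2 ± 3.38 TPM) and Snhg6 (18.1 ± 5.87 TPM) were lowest. In this order only Gas5 and Snhg1, Snhg1 and Zfas1, and Snhg12 and Snhg17 had ranges that did not overlap; all other neighbours overlapped. In Cre-positive libraries Snhg3, at 127 TPM, stood just below Snhg1, and Zfas1, at 109 TPM, came after Snhg5, and the neighbours that did not overlap were Gas5 and Snhg1, and Snhg12 and Snhg17.

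**Figure D1:**
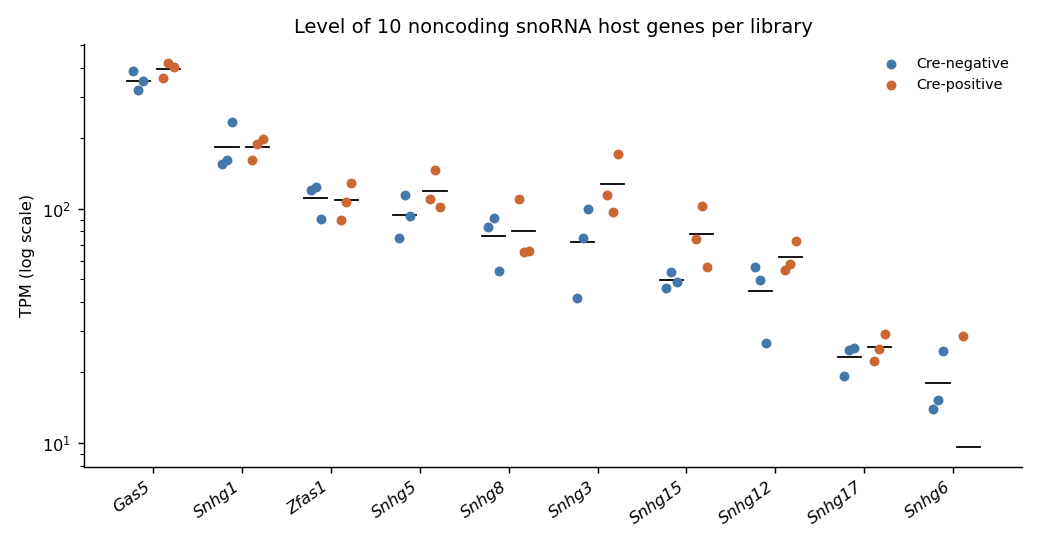
TPM of each host gene (log axis) in the 3 Cre-negative (blue) and 3 Cre-positive (orange) libraries, 1 point per library, with the group mean as a bar. Gas5 lies above all other hosts in every library; 2 Cre-positive libraries with Snhg6 at 0 are not drawn but count in its mean.

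The hosts differed in how steady they were between control embryos. The coefficient of variation of the CPM over the 3 Cre-negative libraries was 5.10% for Snhg5, 10.5% for Snhg17, 14.9% for Snhg15 and 16.3% for Gas5. It was 18% for Snhg1, 18.1% for Zfas1, 35.6% for Snhg12, 38.3% for Snhg8, 39.5% for Snhg3 and 42.9% for Snhg6. Among 8338 tested genes with a mean count of at least 1000 the median was 17.3%, with quartiles of 9.70% and 28.5%. Snhg6, with 0 to 872 counts per library, is outside that set, and Snhg3 and Snhg8 lie near its lower edge. The part of read number in these spreads was not tested.

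None of the 10 hosts had a called change in Cre-positive libraries: edgeR called 0 of 10, where it called 0.122% of all tested genes, all of them higher. The log2 fold change was positive for 6 and negative for 4, where 49.2% of all tested genes were positive, and its median was 0.14 beside -0.01 over all genes tested. DESeq2 called 1 host, Gas5, higher, beside its 1.81% over all genes. At an unadjusted p below 0.05, Gas5 and Snhg15 were higher and none was lower, where 4.05% of tested genes were higher and 4.19% lower. CPM ranges did not overlap for Snhg3 and Snhg15, both higher in Cre-positive libraries, and for 7.53% of all tested genes in that direction. No host was separated downward, as 7.66% of tested genes were. With TPM only Snhg15 was separated, and 5.87% of tested genes were.

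Summed over the 10 hosts, Cre-negative libraries had 553, 536 and 485 CPM and Cre-positive libraries 571, 655 and 657 CPM. The groups did not overlap, at 525 ± 35.8 against 628 ± 49.0 CPM (SD, n = 3), a ratio of 1.20. In TPM the sums were 1026 ± 26.1 and 1189 ± 78.8, a ratio of 1.16, again without overlap. The sums were not tested, and how often sums over other genes separate was not counted. Gas5 made up 33.6% to 44.8% of the summed counts, and without it the sums were 333 ± 13.8 and 369 ± 15.2 CPM, a ratio of 1.11. In TPM the sums without Gas5 were 673 ± 54.5 and 794 ± 49.6, a ratio of 1.18. The 10 hosts together took 0.0492% to 0.0652% of a library.

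Among the hosts of several C/D snoRNAs, Gas5 had the most reads. Gas5 had 225, 188 and 163 CPM in Cre-negative libraries and 212, 294 and 270 CPM in Cre-positive ones. Cre-positive library 1 lay inside the control range and the other two lay above it. Its mean was 192 ± 31.3 against 258 ± 42.1 CPM (SD, n = 3), with a log2 fold change of 0.43 (SE 0.15), an edgeR adjusted p of 0.466 and a DESeq2 adjusted p of 0.0458. Corrected for the effective length in each library, the Gas5 log2 fold change was 0.19 (SE 0.14, edgeR adjusted p = 0.905). Gas5 in TPM was 387, 321 and 351 against 361, 419 and 404, which overlap.

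Snhg1, whose introns encode 8 snoRNAs, had 75.3, 88.7 and 108 CPM in Cre-negative and 97.8, 91.8 and 105 CPM in Cre-positive libraries. All 3 Cre-positive values fell inside the control range, and the log2 fold change was 0.12 (SE 0.16, edgeR adjusted p = 0.969). Snhg5, host of the 2 Snord50 copies, had 65.4, 68.5 and 72.4 CPM against 67.6, 84.5 and 79.1 CPM. Its Cre-positive libraries 2 and 3 lay above every control and library 1 did not. The log2 fold change of Snhg5 was 0.16 (SE 0.15, edgeR adjusted p = 0.941).

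Zfas1, named for its place antisense to the 5' end of Znfx1 and host of Snord12 and its relatives, had 35.1, 38.7 and 26.9 CPM in controls and 26.4, 28.8 and 35.5 CPM in Cre-positive libraries. The groups overlapped, at a log2 fold change of -0.15 (SE 0.25, edgeR adjusted p = 0.988). Znfx1 itself, a helicase-domain zinc finger gene, had 52.7, 41.8 and 38.7 CPM against 58.9, 80.1 and 59.7 CPM. The Znfx1 groups did not overlap, and its log2 fold change was 0.58 (SE 0.21, edgeR adjusted p = 0.459). The exons of the 2 genes share 82 bases on opposite strands; the strand setting of the counting is not given in the sources used here, so reads there may be credited to either gene.

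Snhg6, the host of Snord87, was seen irregularly. It had expected counts of 585, 246 and 609 in Cre-negative libraries and 0, 872 and 0 in Cre-positive ones. Cre-positive library 2 had the highest value of all 6 and the other two had no read. In CPM that is 4.44 ± 1.91 against 3.28 ± 5.69 (SD, n = 3), and the fitted log2 fold change of -0.44 had an SE of 2.20 (edgeR adjusted p = 0.999). Counts that come and go between libraries were common here: 2104 genes had counts in a single library, with a median of 107 in it. Snhg6 exons share 127 bases with Mcmdc2 on the opposite strand, where reads may be credited to either gene.

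Among the hosts of H/ACA snoRNAs, Snhg3 and Snhg15 were the ones with separated groups. Snhg3, host of Snora73a and Snora73b (also called U17), had 5.11, 9.28 and 12 CPM in Cre-negative and 15.2, 13.8 and 24.0 CPM in Cre-positive libraries. Every Cre-positive value lay above every control, though the closest pair was 12 and 13.8. The means were 8.80 ± 3.48 and 17.7 ± 5.55 CPM, 2.01-fold apart, with a log2 fold change of 1.01 (SE 0.46, unadjusted p = 0.0534, adjusted p = 0.620, edgeR). In TPM, Snhg3 had 41.4, 75 and 100 against 114, 96.5 and 171, so that the lowest Cre-positive library fell just under the highest control.

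Snhg15, host of Snora9, had 23.0, 25.6 and 18.9 CPM in Cre-negative and 41.3, 37.0 and 26.3 CPM in Cre-positive libraries. The groups were close at their edges, 25.6 and 26.3, and wide apart in Cre-positive libraries 1 and 2. The means were 22.5 ± 3.36 and 34.9 ± 7.71 CPM, a ratio of 1.55, with a log2 fold change of 0.63 (SE 0.27, unadjusted p = 0.0440, adjusted p = 0.584, edgeR). Per length it was as separated, with 46, 53.7 and 48.5 TPM against 74.5, 103 and 56.4 TPM.

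Snhg17, which holds 3 ACA genes, had 57.2, 59.6 and 48.6 CPM against 58.3, 61.1 and 75.8 CPM, a log2 fold change of 0.24 (SE 0.18, edgeR adjusted p = 0.890). Only Cre-positive library 3 stood well clear of the controls. Snhg8, host of Snora24, had 24.1, 29.0 and 12.7 CPM against 23.8, 15.1 and 17.1 CPM, and all Cre-positive values were inside the control range. Its log2 fold change was -0.23 (SE 0.38, edgeR adjusted p = 0.986).

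Snhg12, which carries Snora16a, Snora44, Snora61 and Snord99, had 37.0, 26.6 and 17.7 CPM against 28.7, 19.5 and 23.4 CPM, again inside the control range, at a log2 fold change of -0.18 (SE 0.33, edgeR adjusted p = 0.991). In TPM the same gene had 56.6, 49.8 and 26.7 against 54.9, 58.0 and 73.1. The direction therefore depended on how transcript length was counted: with the effective length of each library in the fit the log2 fold change of Snhg12 was 0.51 (SE 0.39, edgeR adjusted p = 0.917). The sign turned for Snhg12 and Snhg8 among the 10 hosts, and for 14.7% of all genes tested.

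**Figure D2:**
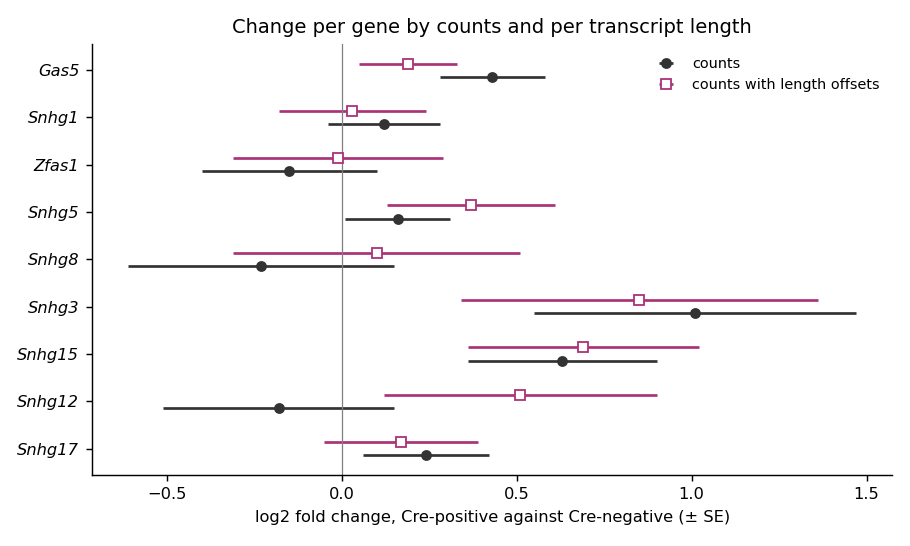
log2 fold change of Cre-positive against Cre-negative libraries with its standard error for 9 host genes, from counts (black circles) and from counts with each library's effective transcript length in the fit (open squares). Snhg12 moves from -0.18 to 0.51 and Gas5 from 0.43 to 0.19; Snhg6, with an SE of 2.20, is left out.

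The deposited tables also give each gene's mean transcript length, weighted by the estimated abundance of its transcripts. This value moves when the mix of transcripts moves. It was measured in all 6 libraries for 9 of the hosts; Snhg6 had no reads in 2. The ranges of the 2 groups did not overlap for Snhg3, longer in Cre-positive libraries, nor for Snhg12 and Zfas1, both shorter. Over 8739 genes measured in the same way, 4.41% were longer without overlap and 4.50% shorter. limma on log2 length called 0 of 9829 genes at an adjusted p below 0.05, and 523 (5.32%) had an unadjusted p below 0.05, Snhg12 among them.

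**Figure D3:**
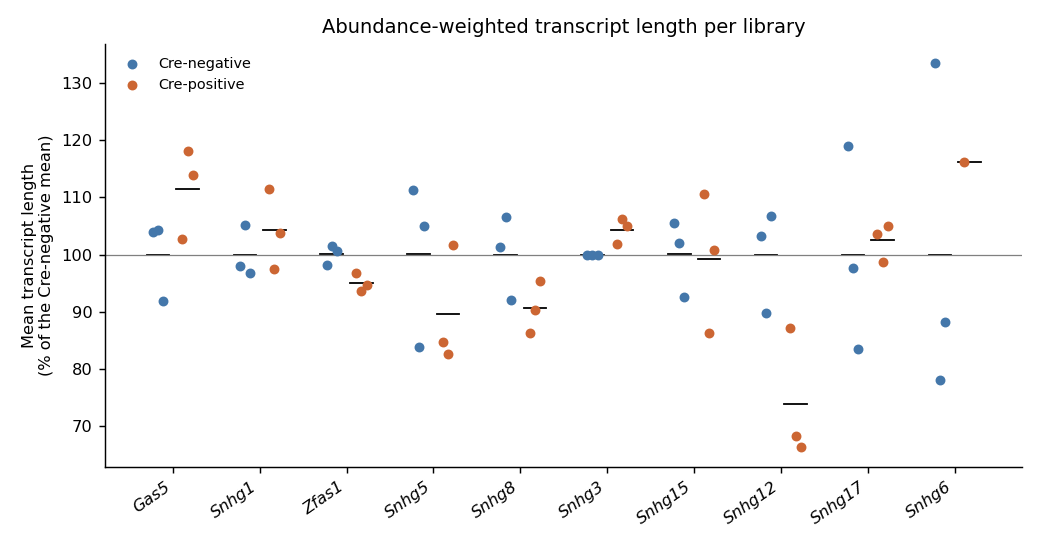
Mean transcript length of each host in each library as a percentage of its Cre-negative mean, with 1 point per library and the group mean as a bar. The 3 Cre-negative points of Snhg3 coincide at 437 bases, and the Cre-positive points of Snhg12 lie below all of its controls.

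Many annotated host transcripts keep an intron, and some of these keep a snoRNA with it. Of the 90 M21 transcripts of the 10 hosts, 45 keep at least 1 whole snoRNA gene in an exon, in 8 of the hosts, and 44 are annotated as retained-intron transcripts. Snhg12 is the clearest case of a kept snoRNA, although 0 of its 10 transcripts are annotated as retained-intron transcripts. By position, 8 of the 10, of 509 to 1538 bases, keep a snoRNA, and the 2 that keep none have 422 and 606 bases. The mean length of Snhg12 was 1063, 924 and 1099 bases in Cre-negative libraries. In Cre-positive libraries it was 896, 701 and 681 bases, all shorter than any control. The log2 difference was -0.45 (SE 0.14, unadjusted p = 0.0240, adjusted p = 0.778, limma). With these transcript lengths, the smallest share of Snhg12 molecules that must keep a snoRNA was 49.1%, 34.2% and 52.9% in controls and 31.1%, 10.2% and 8.01% in Cre-positive libraries. These are lower bounds, reached when the spliced molecules are all of the longer spliced form and the others all of the longest form that keeps a snoRNA.

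Snhg8 has 3 annotated transcripts, of which the 776-base one keeps Snora24 and the other two, of at most 528 bases, do not. Its mean length was 641, 675 and 583 bases against 546, 571 and 604 bases, which overlap. The smallest share keeping Snora24 was 45.6%, 59.4% and 22.3% in Cre-negative and 7.17%, 17.3% and 30.5% in Cre-positive libraries. Zfas1 had mean lengths of 653, 675 and 669 bases against 643, 623 and 629 bases, with 653 and 643 the closest pair (log2 difference -0.08, SE 0.03, adjusted p = 0.969, limma).

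The lengths of the remaining hosts overlapped between the groups. Gas5 had 972, 975 and 858 bases against 960, 1104 and 1065, and Snhg1 had 865, 929 and 854 against 985, 860 and 916. Snhg5 had 1312, 988 and 1238 bases against 998, 973 and 1199. Snhg17, the longest host, had 3650, 2993 and 2558 bases against 3179, 3026 and 3222. Snhg15 had 887, 857 and 777 bases against 929, 725 and 846, all longer than its longest M21 transcript of 675 bases. Snhg5, at 1312 and 1238 bases in Cre-negative libraries 1 and 3, also passed its longest M21 transcript of 1221 bases. The authors' annotation thus holds longer Snhg15 and Snhg5 models than M21. It lists 28 transcripts for Snhg5 where M21 has 6, and 6 for Zfas1 where M21 has 5, while Snhg15 has 4 in both. The shares given for Snhg12, Snhg8 and Snhg3 assume that those hosts kept their M21 lengths. The deposited tables list every one of the 90 M21 transcripts under another version number, so this was not tested transcript by transcript. Among genes with a single transcript in both annotations, 99.7% (31225 of 31330) had the same length. The hosts, each with several transcripts, are not in that set, so it does not check their lengths.

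Snhg3 differed from the other hosts in having the same length in all controls. Its mean length was 437 bases in each of the 3 Cre-negative libraries, which is the length of the 3-exon transcript ENSMUST00000152943. In the Cre-positive libraries it was 445, 464 and 459 bases. The pattern was picked with its values already known. An equal length in all controls and a longer one in each Cre-positive library was found for 7 of 8739 genes (0.0801%). The mirrored pattern, equal in Cre-positive libraries and longer in each control, was found for 6 (0.0687%), and equal in controls and shorter in each Cre-positive library for 18 (0.206%). The log2 length difference of Snhg3 was 0.06 (SE 0.03, unadjusted p = 0.122, adjusted p = 0.969, limma).

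Of the 5 annotated Snhg3 transcripts the only one longer than 440 bases is ENSMUST00000141090, with 581 bases in 2 exons. It starts inside Snora73a and holds 159 of the 205 bases of that snoRNA (77.6%), up to its 3' end, before running through the middle and last exons of the spliced host. The first 300 bases of this transcript are shown, 5' to 3', so that its start can be set beside the Snora73a sequence above; capitals mark bases that lie in no other annotated Snhg3 transcript.
ENSMUST00000141090, starting in Snora73a: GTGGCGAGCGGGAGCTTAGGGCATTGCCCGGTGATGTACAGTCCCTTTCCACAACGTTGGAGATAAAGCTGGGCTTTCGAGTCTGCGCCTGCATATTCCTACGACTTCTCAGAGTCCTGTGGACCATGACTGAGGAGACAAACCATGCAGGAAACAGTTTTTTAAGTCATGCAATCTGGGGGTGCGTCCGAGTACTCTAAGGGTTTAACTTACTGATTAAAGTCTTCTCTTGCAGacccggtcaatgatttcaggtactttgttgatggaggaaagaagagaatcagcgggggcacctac
The 235 bases in capitals open with the same letters as base 47 onward of Snora73a.

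With the M21 lengths, a mean above 440 bases needs some of the 581-base transcript. The smallest share that the lengths allow was 0 in the 3 Cre-negative libraries and 3.73%, 16.7% and 13.3% in Cre-positive libraries 1, 2 and 3. If the 437-base and the 581-base transcripts were the only ones present, the shares would be 5.74%, 18.4% and 15.1%. Cre-positive library 1 was thus lower than the other two but not at the control value. Reads that lie wholly in the Snora73a stretch can come from a snoRNA precursor, a kept intron or this transcript, and these cannot be told apart in gene-level tables. Some reads were credited to the Snora73a gene itself: 20, 0 and 208 in Cre-negative and 50, 84 and 0 in Cre-positive libraries. Their part in the shares above was not tested. Snhg3 exons also share 705 bases with Gm17300 on the opposite strand, which had 206 counts in Cre-positive library 3 and 0 elsewhere, and 135 bases with Rcc1 on the same strand.

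**Figure D4:**
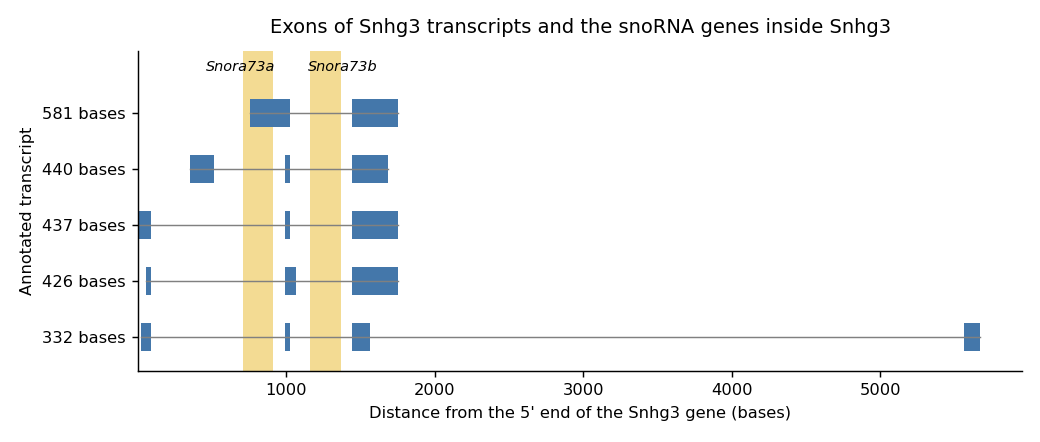
Exons (blue boxes) of the 5 annotated Snhg3 transcripts by distance in bases from the 5' end of the gene, with the snoRNA genes Snora73a and Snora73b as yellow bands. The 581-base transcript alone has an exon that covers snoRNA sequence; the 437-base transcript is spliced across both snoRNAs.

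Other genes with related roles were set beside the hosts. Of 14 further noncoding hosts, 11 had a row and 6 were tested. Of these 6, 0 were called, with 5 positive and 1 negative log2 fold change and a median of 0.55. Several of the 6 had few reads and none in some libraries, with SEs of up to 2.80, so this median is loose. Snhg20 had 15.4, 15.6 and 7.01 CPM in Cre-negative and 22.2, 26.8 and 25.6 CPM in Cre-positive libraries, without overlap, at a log2 fold change of 0.97 (SE 0.38, edgeR adjusted p = 0.526). Snhg14, the long transcript that carries imprinted C/D snoRNA clusters, had 0.280, 0.448 and 0 CPM against 1.57, 3.70 and 2.83 CPM (log2 fold change 3.47, SE 2.08, edgeR adjusted p = 0.803). Snhg9, Snhg11 and Mirg were at 0 in all 6 libraries.

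The 35 protein-coding genes with snoRNAs in their introns were nearly level, with a median log2 fold change of 0.02, 20 positive and 15 negative, and 0 called by edgeR. The CPM groups were separated upward for 5 and downward for 1, beside 7.53% and 7.66% of all tested genes. DESeq2 called 2 of the 35 higher, beside 1.81% of all genes: Nop56, a core C/D snoRNP protein (log2 fold change 0.26, edgeR adjusted p = 0.324, DESeq2 adjusted p = 0.0140), and Taf1d, a subunit of the RNA polymerase I selectivity factor (0.30, edgeR adjusted p = 0.433, DESeq2 adjusted p = 0.0441). Nop56 stood at 574, 616 and 532 CPM against 690, 673 and 705 CPM, without overlap.

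Ribosomal protein genes, which share the 5' oligopyrimidine tract with many hosts, had 0 of 81 called, 55 positive and 26 negative, and a median log2 fold change of 0.06, where 49.2% of all tested genes were positive. Their CPM groups were separated upward for 11 and downward for 2, beside 7.53% and 7.66% of all tested genes. Their smallest p belonged to Rps7, at -0.33 (SE 0.09, edgeR adjusted p = 0.266, DESeq2 adjusted p = 0.00136). Rps27a was at 0.22 (SE 0.07, edgeR adjusted p = 0.395, DESeq2 adjusted p = 0.0307), so that DESeq2 called 1 ribosomal protein gene lower and 1 higher. The 18 snoRNP proteins and assembly factors had a median of 0.05 and 0 called, and DESeq2 called Nop56 alone among them. The 19 nonsense-mediated decay factors had a median of 0.05 and 0 called; Upf3b, which links the exon junction complex to decay, was at 0.28 (edgeR adjusted p = 0.550). The 12 factors acting on oligopyrimidine-tract mRNAs had a median of 0.06 and 0 called by edgeR. DESeq2 called Eif4ebp1, the translation repressor controlled by mTOR, lower (log2 fold change -0.66, SE 0.21, edgeR adjusted p = 0.368, DESeq2 adjusted p = 0.0384).

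**Figure D5:**
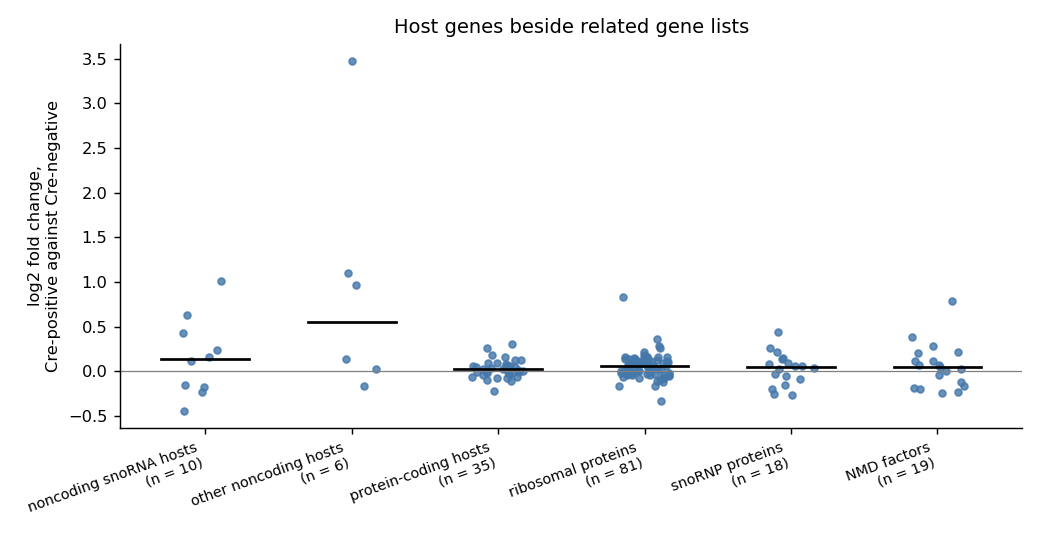
log2 fold change of Cre-positive against Cre-negative libraries for each tested gene (point) of 6 gene lists, with the list median as a bar. Medians run from 0.02 for protein-coding hosts to 0.55 for the 6 other noncoding hosts, several of which had few reads. The 10 hosts described here spread from -0.44 to 1.01.

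Genes beside the hosts, several of which start from the same region on the other strand, had 0 of 13 tested called, 5 positive and 8 negative, and a median log2 fold change of -0.09. Zbtb37, head to head with Gas5, had 40.7, 39.1 and 38.0 CPM in Cre-negative and 25.6, 29.2 and 36.4 CPM in Cre-positive libraries. All Cre-positive values of Zbtb37 were below the controls (log2 fold change -0.37, SE 0.23, edgeR adjusted p = 0.817), while those of Gas5 were not. Slc3a2, beside Snhg1 and the heavy chain of an amino acid transporter, was at -0.33 (edgeR adjusted p = 0.696), and Rcc1, which overlaps Snhg3, at -0.22 (edgeR adjusted p = 0.816). Ccm2, near Snhg15, had 24.9, 25.8 and 26.9 CPM against 34.9, 36.8 and 32.9 CPM, without overlap, at a log2 fold change of 0.43 (SE 0.22, edgeR adjusted p = 0.716). Tcf24, Vxn, Prss12 and Nacad, neighbours of Snhg6, Snhg8 and Snhg15, were at 0 in all 6 libraries. Snhg8 and Snhg15 were read in all 6, while Snhg6 was itself at 0 in Cre-positive libraries 1 and 3.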

How the data were processed

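RNA-seq of 6 libraries was used. The submitters' processing notes name STAR 2.5.3a, RSEM 1.3.0 and the mm39 (GRCm39) build; for the annotation release and the strand setting, the sources used here give nothing. Per the file headers, the deposited RSEM tables give expected counts, TPM and FPKM (FPKM was not used), and length, the authors' abundance-weighted mean transcript length in bases. Of the 55359 entries, 52081 had a symbol and 3278 none; 2.64% of the expected counts were not whole and were rounded. Genes kept by edgeR's filter for low counts (13117) were tested with edgeR 4.0.16 (R 4.3.3), TMM factors of 0.988 to 1.017, the quasi-likelihood test and Benjamini-Hochberg adjustment over all genes at 0.05. log2 lengths were tested with limma 3.58.1; DESeq2 1.42.0, limma-voom, other scalings and filters, a replicate block, effective length offsets and leaving out each library were alternatives. The common biological coefficient of variation was 85.4%.

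Gene models and sequences came from GENCODE M21 (GRCm38), so no coordinates are given. All 10 hosts are named, with, of each other list, genes past the threshold or up to 3 with the smallest p, tested neighbours and snoRNAs with any count. The members and lists were chosen with earlier results of these data known. The series describes 2 embryos from each of 3 litters, and the labels do not say which libraries share a litter. The main fit treated the 6 libraries as independent. Litter is not a term in that fit, so its p-values do not separate litter differences from other spread between these samples. An exact permutation test on a single value of 3 against 3 libraries cannot go below 0.10, so none was run. The script was tested on simulated data.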

Additional observations from a re-analysis of the deposited data

How the results depend on the processing

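For the 10 hosts, 142 refits of the log2 fold change under the alternatives kept the direction and the side of the threshold, 6 turned the sign and 1, Gas5 in DESeq2 (0.43, adjusted p = 0.0458), passed the threshold, which made 1 host called by DESeq2. The median over the hosts ran from 0.12 to 0.20. The sign turned for Snhg6 without Cre-positive replicate 1 (0.14) or 3 (0.15), for Snhg8 with effective length offsets (0.10) or without Cre-negative replicate 2 (0.02), and for Snhg12 with the offsets (0.51) or without Cre-negative replicate 1 (0.11). Without Cre-negative replicate 3 these last reached -0.51 for Snhg8 and -0.41 for Snhg12. Leaving out 1 library moved Zfas1 between -0.29 and -0.04, Snhg1 between 0.00 and 0.26, Snhg5 between 0.09 and 0.25 and Snhg17 between 0.12 and 0.31. Snhg6 reached -11.97 without Cre-positive replicate 2, -8.74 with the replicate block and -6.56 with limma-voom. Of the log2 length differences, 85 kept their direction; Snhg15 turned to 0.02 without Cre-negative replicate 1 and 0.08 without Cre-positive replicate 2, and Snhg17 to -0.07 without Cre-negative replicate 3. Their other ends were -0.10 for Snhg15 without Cre-positive replicate 1 and 0.18 for Snhg17 without Cre-negative replicate 1.

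The counts of called genes depended on the fit more than the hosts did. Higher and lower calls were 33 and 6 with no filter on low counts, 58 and 26 at a mean count of at least 1000, 38 and 18 with the replicate block, 235 and 218 with DESeq2, and 6 and 0 with effective length offsets; limma-voom gave 20 and 0. Leaving out 1 replicate gave 7 to 15 higher and 0 to 3 lower, with 8 higher without Cre-positive replicate 1 and 7 without Cre-positive replicate 2. Same-numbered libraries correlated at 0.026, 0.053 and 0.073 in their deviations from the group means, so the numbers were not taken to pair the embryos, although each library correlated best with its own number. The block called 0 of the 10 hosts. Snhg6, with no reads in 2 libraries, gave no stable direction.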
